A study of Mus musculus with 18 samples.

Results

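The light-chain variable (V) genes were taken as the rows of the gene table whose symbol begins with Igkv or Iglv followed by a number. This rule found 163 genes among 55491, of which 160 belong to the kappa locus and 3, Iglv1, Iglv2, and Iglv3, to the lambda locus. All samples were B cells of female BALB/cJ mice aged 10 to 12 weeks at harvest, sensitized by i.p. injection on days 0 and 14 (OVA, 20 μg, adsorbed to alum, 1 mg). The mice were treated i.v. on days 28 and 42 with 2.5 mg of OVA-loaded nanoparticles (OVA NPs), 100 μg of soluble OVA, or 100 μL of PBS, and were killed on day 44. Every control mouse was therefore also sensitized. B cells were isolated from the spleen and from the Peyer's patches (PPs), the lymphoid follicles of the gut wall, by removal of other cells with magnetic beads. Bulk RNA-Seq of these cells gave 18 libraries, 3 for each of the 6 combinations of tissue and treatment.

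An antibody light chain is encoded by a V exon that a developing B cell joins to a short joining (J) segment, upstream of a constant (C) exon. The joining is carried out by the RAG recombinase. Each B cell usually keeps 1 productive light chain, from either the kappa or the lambda locus, and passes that choice to its daughters. The usage of V genes across many cells therefore depends on the mixture of B cell clones. Counted in RNA, usage also depends on the light-chain RNA in each cell, and many clones can share 1 V gene. Clones themselves were not measured here. In germinal centers, where activated B cells divide and mutate their V exons, some clones expand more than others, and PPs hold such germinal centers continuously because of their contact with gut microbes. In the mouse most B cells carry kappa.

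Library totals ran from 14177253 to 30052297 counts, and the light-chain V genes took between 9287 and 23636 of them, or 655 to 1032 CPM, counts scaled to the library total in the usual way. A total of 3 counts, taken as the detection floor, corresponded to 0.0127% to 0.0323% of the light-chain V counts of a library. The B cell markers (Ms4a1, Cd79a, Cd79b, Pax5, and Cd22) summed to 4454 to 7749 CPM in each library and 6 T cell markers to between 1.46 and 29.7 CPM. The 6 monocyte and macrophage markers summed to between 41.2 and 239.7 CPM. In bulk samples, fewer cells of a type and less RNA per cell cannot be told apart.

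The V genes are a family of near copies, and this limits how reads can be assigned to single genes. Among the 103 members annotated as functional V genes, 49 were at least 95% identical over the coding sequence to another member, and 6 were at least 98% identical. The germline ends of the V exons of 3 pairs are given first, because the results below turn on them. Igkv6-17 (chr6:70371704-70371993, plus strand) and Igkv6-15 (chr6:70406469-70406758, minus strand) moved together in the PPs of soluble OVA–treated mice. Igkv1-135 (chr6:67610219-67610508, plus strand) was the most used member and Igkv1-133 (chr6:67725372-67725661, plus strand) its closest copy. Iglv1 (chr16:19085017-19085306, minus strand) and Iglv2 (chr16:19260401-19260690, minus strand) are the lambda V genes that resemble each other. The sequences are the last 290 coding bases, 5′ to 3′ in the sense of the gene, from GENCODE transcripts on GRCm38, and capitals mark the bases that differ from the other member of the pair.
Igkv6-17: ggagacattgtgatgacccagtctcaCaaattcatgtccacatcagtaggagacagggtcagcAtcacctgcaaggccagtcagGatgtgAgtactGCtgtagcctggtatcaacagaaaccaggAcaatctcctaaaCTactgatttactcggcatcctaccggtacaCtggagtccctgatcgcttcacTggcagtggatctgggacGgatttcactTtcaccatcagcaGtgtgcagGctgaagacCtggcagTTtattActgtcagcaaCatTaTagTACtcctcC
Igkv6-15: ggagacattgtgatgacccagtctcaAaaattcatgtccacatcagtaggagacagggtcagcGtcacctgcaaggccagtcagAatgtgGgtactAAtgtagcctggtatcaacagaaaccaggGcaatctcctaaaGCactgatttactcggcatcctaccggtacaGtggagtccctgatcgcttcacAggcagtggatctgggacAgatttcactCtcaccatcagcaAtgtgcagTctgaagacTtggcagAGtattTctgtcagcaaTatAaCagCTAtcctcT
Igkv1-135: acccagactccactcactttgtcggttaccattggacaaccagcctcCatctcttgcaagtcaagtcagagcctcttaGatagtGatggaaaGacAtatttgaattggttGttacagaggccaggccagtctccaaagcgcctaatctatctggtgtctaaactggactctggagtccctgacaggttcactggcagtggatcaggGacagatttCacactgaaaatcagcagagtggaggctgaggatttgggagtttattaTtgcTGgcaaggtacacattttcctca
Igkv1-133: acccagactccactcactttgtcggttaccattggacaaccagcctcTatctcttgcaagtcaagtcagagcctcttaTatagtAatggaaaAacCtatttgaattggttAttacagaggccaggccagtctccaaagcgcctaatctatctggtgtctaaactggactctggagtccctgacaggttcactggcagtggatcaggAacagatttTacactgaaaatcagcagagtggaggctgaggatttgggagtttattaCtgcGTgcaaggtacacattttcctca
Iglv1: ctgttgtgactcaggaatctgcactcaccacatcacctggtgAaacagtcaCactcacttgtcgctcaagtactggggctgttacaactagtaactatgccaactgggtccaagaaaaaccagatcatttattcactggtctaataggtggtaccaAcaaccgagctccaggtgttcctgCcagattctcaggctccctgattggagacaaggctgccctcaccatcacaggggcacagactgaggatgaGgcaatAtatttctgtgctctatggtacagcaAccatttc
Iglv2: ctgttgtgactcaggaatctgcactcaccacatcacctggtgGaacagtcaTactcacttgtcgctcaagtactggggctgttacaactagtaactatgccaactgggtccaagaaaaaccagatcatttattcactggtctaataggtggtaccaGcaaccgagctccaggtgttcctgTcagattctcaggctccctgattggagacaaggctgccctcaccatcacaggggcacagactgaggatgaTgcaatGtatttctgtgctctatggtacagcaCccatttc
Counted base against base without gaps, 26 of 290 positions differed between Igkv6-17 and Igkv6-15. The corresponding number was 11 for Igkv1-135 and Igkv1-133 and 7 for Iglv1 and Iglv2. Values of Igkv1-133 and Iglv2, and of other members with a near copy, are thus uncertain where a read covers no differing base.

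Of the 163 members, 126 had at least 1 count and 87 had counts in all 18 libraries. The other 37 were at 0 throughout, which allows each a share of up to 0.000976% of the 307306 light-chain V counts pooled over libraries. Of these, 36 are annotated as V pseudogenes, which lack an intact coding frame, and 1, Igkv1-131, as a functional gene. All 60 pseudogenes together took 0.068% to 0.332% of the light-chain V counts of a library. The J segments, which are very short, were listed at 0 counts in every library.

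Usage was uneven. The 14 most used members were needed to reach 50% of the mean usage, and the 10 most used took 41.4% of it. Igkv1-135 led with a mean share of 8.21%, followed by Iglv1 with 5.60%, Igkv6-17 with 4.50%, and Igkv12-44 with 4.37%. Igkv14-111, Igkv1-117, Igkv1-110, Igkv16-104, Igkv6-23, and Igkv4-59 had mean shares from 3.59% down to 2.46%. These are shares of counts. Dividing counts by coding length, which ran from 338 to 371 bases, left the first 9 places unchanged, and Igkv4-59 changed places with Igkv19-93. By family, Igkv1 took 16.4%, Igkv4 15.2%, and Igkv6 15.2% of the counts on average, with 13, 33, and 9 members.

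**Figure D1:**
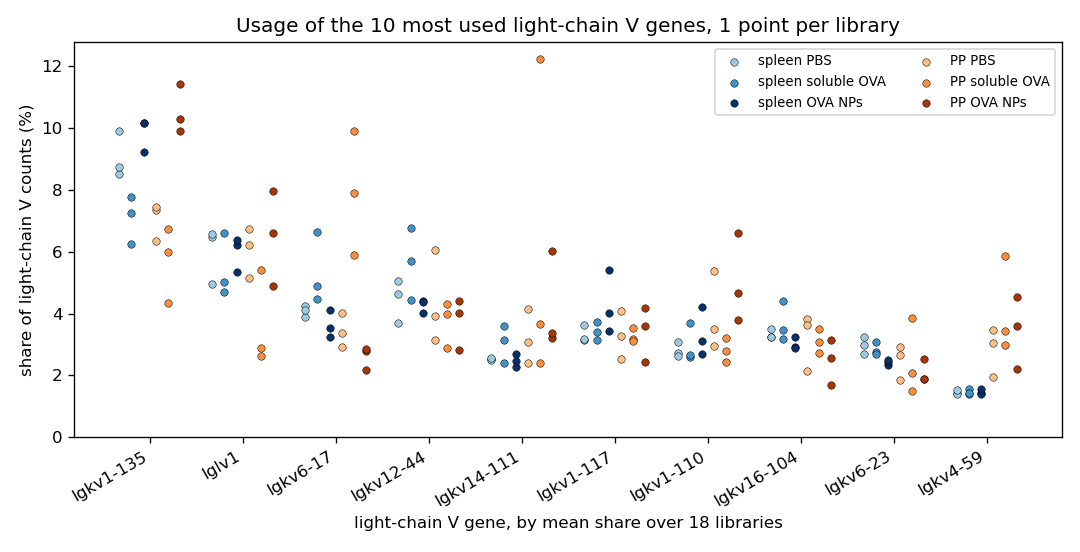
Share of light-chain V counts (%, y axis) taken by each of the 10 most used V genes (x axis), with 1 point per library and 3 libraries for each tissue and treatment. Igkv1-135 led in most libraries, Igkv14-111 reached 12.2% in 1 PP library of soluble OVA–treated mice, and Igkv8-16, which led in another PP library, is not among these 10 genes.

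Igkv1-135 was the leading member in 14 of 18 libraries. In the others the leader was Igkv6-17, in spleen soluble OVA replicate 3 and PP soluble OVA replicate 1, Igkv8-16, in PP PBS replicate 2, or Igkv14-111, in PP soluble OVA replicate 3. The leading member took 5.97% to 12.2% of a library's light-chain V counts, so no library was dominated by a single V gene.

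The first comparison was between tissues, as the mean of the PP minus spleen differences within the 3 treatments. Genes were called when edgeR's quasi-likelihood test gave a Benjamini-Hochberg adjusted p below 0.05 over all genes tested and the log2 fold change was beyond 0.25 in size. Of 92 members that passed the filter on low counts, 5 were called higher and 24 lower in PPs. Over all 17170 genes tested, 28.6% were called higher and 24.6% lower. The members called higher were thus 5.43% of those tested and the members called lower 26.1%. The median log2 fold change of the members was -0.28, against -0.01 over all genes. The summed level of all light-chain V genes did not pass the test. It was 9.60 in PPs and 9.61 in the spleen on the log2 CPM scale after TMM scaling (means of 9 libraries), a difference of -0.01 (exact 2-sided permutation test within treatments, p = 0.82). Markers of several cell types moved with tissue. The germinal center list of 9 genes, among them Bcl6, S1pr2, and Mybl1, summed to 325.0 to 1029 CPM in the spleen libraries and 1333 to 3218 CPM in the PP libraries. Mki67 carried much of this sum, with means of 155.8 CPM in the spleen and 738.8 CPM in PPs with PBS. Of the 9 genes, 8 were called higher in PPs, and Gpr183 was not called. The plasma cell list summed to 540.0 to 895.9 CPM in the spleen and 1166 to 1309 CPM in PPs. Of its 10 genes, 5 were called higher in PPs and 1, Slpi, lower. Jchain carried much of the sum, with means of 111.6 CPM in the spleen and 509.2 CPM in PPs with PBS. The B cell list summed to 6546 to 7749 CPM in the spleen and 4454 to 5625 CPM in PPs, and the T cell list to 1.46 to 4.28 CPM and 5.04 to 29.7 CPM. The part of these cells in the V gene differences was not tested.

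The members called higher in PPs were Igkv8-16, Igkv4-59, Igkv4-86, Igkv14-111, and Igkv8-34. Igkv8-16 had a lowest, median, and highest level of 2.64, 5.36, and 7.03 CPM in the 9 spleen libraries and of 1.93, 20.6, and 61.0 CPM in the 9 PP libraries. All PP libraries but 1 were above every spleen library, and the exception, at 1.93 CPM, was soluble OVA replicate 1. The log2 fold change was 2.28 ± 0.42 (SE; adjusted p = 0.000307, edgeR). Igkv4-59 ran from 9.68 to 14.1 CPM with a median of 11.7 CPM in the spleen and from 12.8 to 41.7 CPM with a median of 23.4 CPM in PPs, a log2 fold change of 1.20 ± 0.14 (adjusted p = 1.05e-06, edgeR). A single PP library, PBS replicate 2, lay within the spleen range of Igkv4-59. Igkv4-86 was at 2.71 to 10.8 CPM in the spleen and 6.39 to 40.1 CPM in PPs, with a log2 fold change of 1.58 ± 0.31 (adjusted p = 0.000479, edgeR). Igkv14-111 was called with a log2 fold change of 0.66 ± 0.27 (adjusted p = 0.0428, edgeR), and the call was lost when any of 11 libraries was left out. Igkv8-34 was below 0.4 CPM in every spleen library and reached 2.39 CPM in PPs.

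Among the 24 members called lower in PPs were Iglv2 and Iglv3 of the lambda locus and 22 kappa genes from 11 families, with 6 of them in Igkv4 and 3 each in Igkv1 and Igkv6. Igkv1-88 had the largest change with non-overlapping libraries. It ran from 4.23 to 15.5 CPM with a median of 10.2 CPM in the spleen and from 1.14 to 2.96 CPM with a median of 1.97 CPM in PPs. Every PP library was below every spleen library, and the log2 fold change was -2.08 ± 0.18 (adjusted p = 6.62e-09, edgeR). Iglv3 did not overlap between the tissues either, at 7.53 to 14.1 CPM in the spleen and 3.29 to 7.17 CPM in PPs. The log2 fold change of Iglv3 was -1.02 ± 0.11 (adjusted p = 8.96e-08, edgeR). Iglv2 ran from 4.55 to 14.1 CPM in the spleen and from 1.06 to 5.89 CPM in PPs, so that only the upper PP values reached the spleen range. Its log2 fold change was -1.37 ± 0.16 (adjusted p = 2.63e-07, edgeR). Igkv14-126 ran from 3.02 to 9.34 CPM in the spleen and from 0.852 to 3.35 CPM in PPs, a log2 fold change of -1.58 ± 0.21 (adjusted p = 2.27e-06, edgeR). Of the 29 called members, 18 kept their call under every other setting and after leaving out each library in turn. The most used member, Igkv1-135, was not called between tissues (log2 fold change -0.20 ± 0.09, adjusted p = 0.0542, edgeR), nor was Igkv6-17 (-0.07 ± 0.11, adjusted p = 0.603, edgeR).

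**Figure D2:**
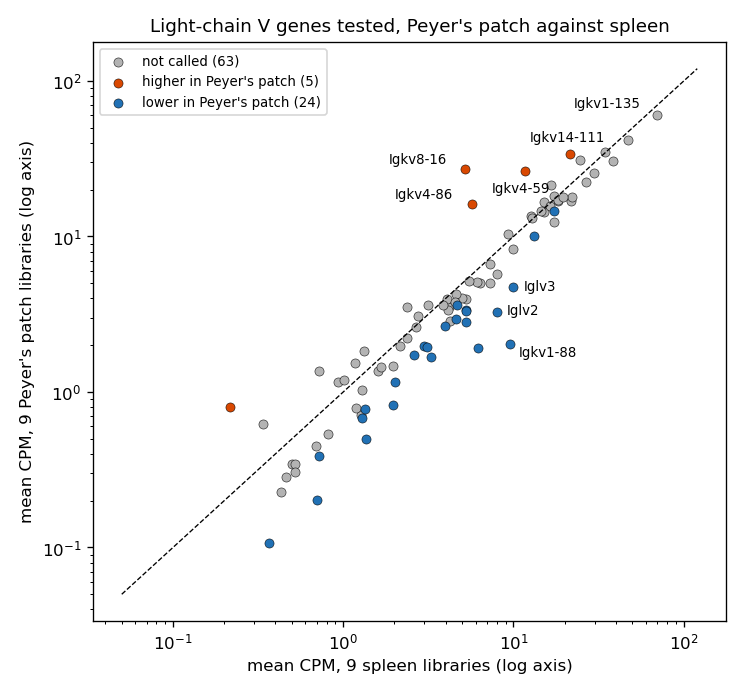
Mean level of the 92 light-chain V genes tested between tissues, in CPM over the 9 spleen libraries (x axis, log) and the 9 PP libraries (y axis, log), with a dashed line at equal levels. The 5 genes called higher in PPs include Igkv8-16, Igkv4-59, and Igkv4-86, and the 24 called lower lie below the line, with Igkv1-88 at 1.14 to 2.96 CPM in every PP library.

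The lambda share was compared next. In the mouse lambda locus each V gene is joined to particular C genes, so the V and C shares were read side by side. Iglv1 to Iglv3 took 8.04% of the light-chain V counts on average in the spleen and 6.42% in PPs, a difference of -1.62 percentage points (exact 2-sided permutation test within treatments over 8000 arrangements, p = 0.0145). The difference was -1.56 points in PBS, -2.91 points in soluble OVA–treated, and -0.37 points in OVA NP–treated mice. Iglv1 itself was not called between tissues (log2 fold change -0.15 ± 0.18, adjusted p = 0.486, edgeR). The lambda C genes Iglc1 to Iglc4 took from 31.4% to 40.5% of the C counts in the spleen libraries and from 16.1% to 26.0% in the PP libraries. These tissue ranges did not overlap. In every library, however, the lambda C share was well above the lambda V share. Iglc2 averaged 480.7 CPM in the spleen with PBS, whereas Iglv2 and Iglv3 had spleen medians of 6.84 and 9.45 CPM. The reason for this gap was not tested. Neither share is therefore read as the fraction of lambda B cells, nor the C ranges as support for the V difference. Iglc2, the most abundant of the 4, was called lower in PPs with a log2 fold change of -1.10 ± 0.06 (adjusted p = 7.69e-12, edgeR), as was Iglc3 (-0.91 ± 0.09, adjusted p = 8.35e-08, edgeR), whereas Igkc was not called (0.01 ± 0.06, adjusted p = 0.927, edgeR). Iglc2 and Iglc3 are close copies of each other, and their single values are uncertain.

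**Figure D3:**
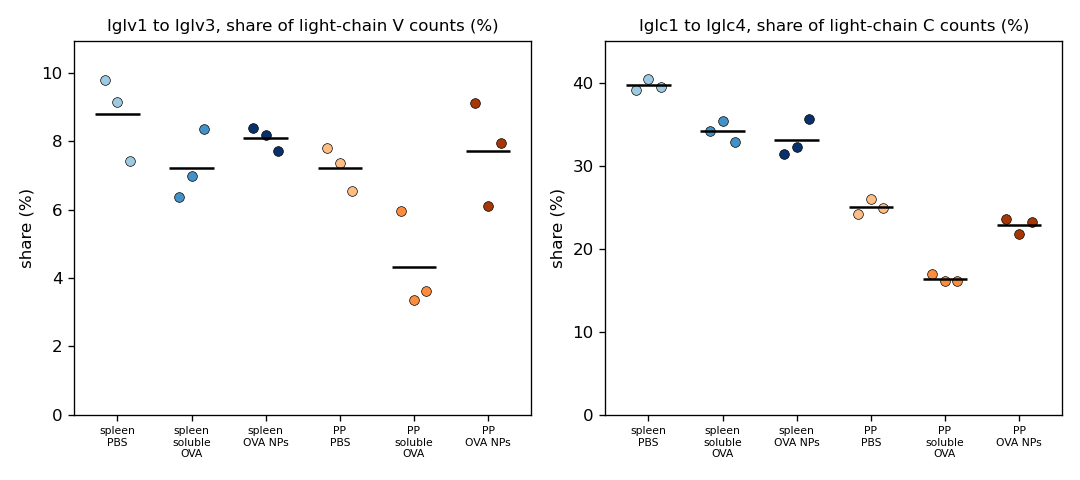
Share of Iglv1 to Iglv3 among light-chain V counts (left, %) and of Iglc1 to Iglc4 among light-chain C counts (right, %), with 1 point per library and a bar at the mean of 3. The V share was lowest in PPs of soluble OVA–treated mice, at 3.35% to 5.97%, and the C share was 16.1% to 16.9% in the same libraries.

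In the PPs, soluble OVA was compared with PBS. Of 82 members tested, 6 were called higher and 4 lower, beside 13.5% higher and 13.9% lower over all 15792 genes, so the members' shares were below the background in both directions. The median of the absolute log2 fold change was 0.56 for the members and 0.33 for all genes. The members called higher were Igkv12-38, Igkv6-17, Igkv6-15, Igkv3-5, Igkv12-46, and Igkv3-2. Igkv6-17 was at 27.1, 22.1, and 21.9 CPM in the PBS libraries and at 77.9, 43.3, and 56.3 CPM in the soluble OVA libraries. The groups did not overlap, and the log2 fold change was 1.34 ± 0.23 (adjusted p = 0.00771, edgeR). Igkv6-15 was at 9.43, 7.69, and 14.3 CPM with PBS and at 22.0, 26.9, and 21.9 CPM with soluble OVA, a log2 fold change of 1.19 ± 0.21 (adjusted p = 0.00463, edgeR). Both genes lie in the J-proximal part of the locus, 351 and 316 kb from Igkj1. Igkv3-5 was at 6.32, 10.8, and 10.9 CPM with PBS and at 18.6, 16.5, and 20.3 CPM with soluble OVA (log2 fold change 1.01 ± 0.21, adjusted p = 0.0065, edgeR). Igkv12-38 was rare, with 4, 6, and 18 counts in the PBS libraries and 71, 152, and 32 in the soluble OVA libraries.

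The members called lower with soluble OVA in PPs were Igkv4-61, Igkv8-28, Iglv2, and Igkv8-34. Igkv4-61 was at 4.63, 7.41, and 5.61 CPM with PBS and at 1.46, 2.52, and 1.61 CPM with soluble OVA, and fell by 1.63 ± 0.32 on the log2 scale (adjusted p = 0.005, edgeR). Igkv8-28 was at 3.90, 7.97, and 4.21 CPM with PBS and at 1.70, 1.62, and 2.27 CPM with soluble OVA (log2 fold change -1.50 ± 0.35, adjusted p = 0.0113, edgeR). Iglv2 was at 3.24, 3.10, and 3.27 CPM with PBS and at 1.06, 1.88, and 1.24 CPM with soluble OVA (-1.18 ± 0.32, adjusted p = 0.0235, edgeR). In all of these the 3 soluble OVA libraries lay below the 3 PBS libraries. Igkv4-61, Igkv8-28, Igkv6-15, and Igkv3-5 kept their calls in every other setting and without any single library, and Igkv6-17 in all but 1, without PBS replicate 2. Without PBS replicate 1, 6 members were called in place of 10. Germinal center markers moved with this comparison too, from 1629 to 1922 CPM with PBS to between 3016 and 3218 CPM with soluble OVA. Of the 9 listed genes, 7 were called higher and 1, Gpr183, lower, and Rgs13 was not called. Mki67 carried much of the sum, with means of 738.8 CPM with PBS and 1647 CPM with soluble OVA. Their part in the V gene differences was not tested.

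The comparison of OVA NPs with soluble OVA in the PPs shares its soluble OVA libraries with the one above. Of 82 members tested, 8 were called higher and 4 lower with OVA NPs, beside 13.8% higher and 16.3% lower over all 15599 genes. Counted as shares of the light-chain V counts instead of levels, 5 members were called higher and 6 lower. Igkv6-17 was at 22.6, 22.0, and 21.6 CPM in the OVA NP libraries, below all soluble OVA values given above, with a log2 fold change of -1.45 ± 0.23 (adjusted p = 0.00535, edgeR). Igkv6-15 was at 11.1, 9.19, and 8.55 CPM with OVA NPs (-1.31 ± 0.14, adjusted p = 0.000416, edgeR). Iglv2 was at 5.89, 4.04, and 5.78 CPM with OVA NPs (1.89 ± 0.30, adjusted p = 0.00215, edgeR). Igkv1-135 was at 102.1, 90.2, and 77.7 CPM with OVA NPs and at 53.1, 43.8, and 30.9 CPM with soluble OVA (1.05 ± 0.23, adjusted p = 0.0203, edgeR). Igkv4-61, at 12.7, 6.77, and 3.53 CPM with OVA NPs, was above its soluble OVA values in all 3 libraries (2.02 ± 0.47, adjusted p = 0.0148, edgeR). The other calls were Igkv4-53, Igkv9-120, Igkv13-85, Igkv10-96, and Igkv4-68, higher with OVA NPs, and Igkv12-38 and Igkv12-46, lower. Igkv6-17, Igkv6-15, Iglv2, and Igkv12-38 kept their calls in every other setting and without any single library. The number of called members was 7 without soluble OVA replicate 1 and 6 without OVA NP replicate 3. The germinal center list summed to 1333 to 1901 CPM and the T cell list to 19.5 to 29.7 CPM with OVA NPs, against 5.04 to 11.1 CPM for T cells with soluble OVA, and their part in these differences was not tested.

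**Figure D4:**
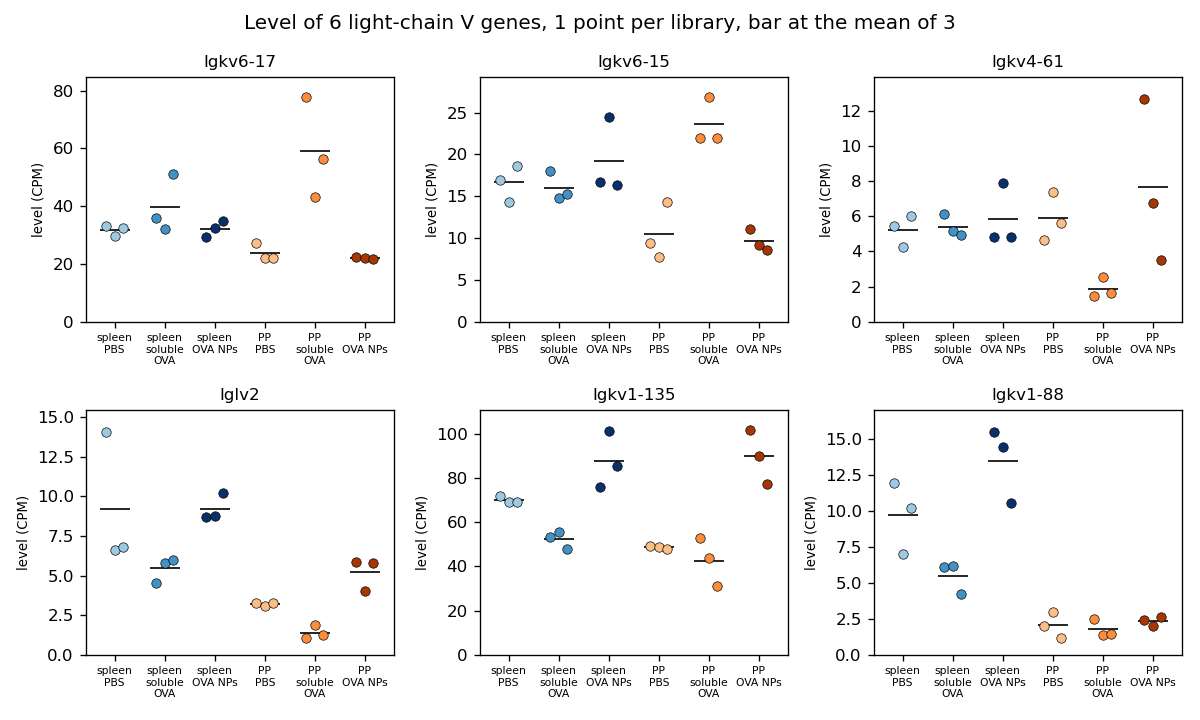
Level (CPM, y axis) of 6 light-chain V genes in each library of the 6 groups, with 1 point per library and a bar at the mean of 3. Igkv6-17 and Igkv6-15 had their highest group means in PPs of soluble OVA–treated mice, Igkv4-61 and Iglv2 their lowest, Igkv1-135 was higher with OVA NPs than with soluble OVA in both tissues, and Igkv1-88 was low in all PP libraries.

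Between OVA NPs and PBS in the PPs, no member was called among 81 tested, and no gene among 15798 (0.0% higher and 0.0% lower). At an unadjusted p below 0.05, 13 members and 1573 genes passed edgeR's test. DESeq2 called 3 of 117 members higher and none lower, beside 0.322% higher and 0.19% lower over all 27947 genes in its fit. No gene of the whole table had a smaller adjusted p than the member Igkv1-135, but this adjusted p was tied with that of at least another gene. Igkv1-135 was at 49.5, 48.7, and 47.9 CPM with PBS and at 102.1, 90.2, and 77.7 CPM with OVA NPs. The groups did not overlap, with a log2 fold change of 0.90 ± 0.10 (adjusted p = 0.0522, edgeR). It was called by DESeq2 (adjusted p = 1.11e-10), without the filter on low counts, with all 18 libraries in 1 fit (adjusted p = 0.0333, edgeR), and without OVA NP replicate 3 (adjusted p = 0.0311, edgeR). It was not called when scaled to the summed light-chain V counts (0.58 ± 0.09, adjusted p = 0.129, edgeR). Nor was it called with the replicate block (adjusted p = 0.161, edgeR) or when any other single library was left out (adjusted p from 0.0845 to 0.369, edgeR). Igkv2-137, the kappa V gene farthest from the J segments, was next among the members, at 17.3, 16.6, and 18.7 CPM with PBS and at 26.6, 31.5, and 37.3 CPM with OVA NPs (0.88 ± 0.13, adjusted p = 0.125, edgeR; DESeq2 adjusted p = 4.73e-05). Igkv2-137 was also called without the filter on low counts. It was not called when scaled to the summed light-chain V counts (adjusted p = 0.439, edgeR), with all 18 libraries in 1 fit (adjusted p = 0.229, edgeR), or without any single library. The median log2 fold change of the 81 members was 0.32, against -0.01 over all genes. The summed light-chain V level was 0.30 higher on the log2 scale with OVA NPs (exact permutation test, p = 0.1, the smallest that 3 libraries against 3 allow). The T cell list summed to 8.89 to 14.6 CPM with PBS and 19.5 to 29.7 CPM with OVA NPs, and its part in these values was not tested.

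In the spleen, OVA NPs and PBS differed in 6 of 89 members tested, with 5 higher and 1 lower, beside 8.6% higher and 6.35% lower over all 14200 genes. The median log2 fold change of the members was 0.18, against 0.0006 over all genes, and 69 of the 89 were higher with OVA NPs. As shares of the light-chain V counts, 1 member was called higher and 3 lower. Igkv1-135, Igkv1-117, Igkv6-32, and Igkv1-133 were not called as shares. Igkv1-135 took 8.51%, 9.91%, and 8.73% with PBS and 9.23%, 10.2%, and 10.2% with OVA NPs, so its shares overlapped. Igkv1-135 was at 72.1, 69.2, and 69.3 CPM with PBS and at 76.2, 101.4, and 85.6 CPM with OVA NPs (log2 fold change 0.34 ± 0.09, adjusted p = 0.0198, edgeR). Igkv4-86 was at 4.69, 3.38, and 4.23 CPM with PBS and at 10.3, 10.8, and 4.99 CPM with OVA NPs (1.08 ± 0.27, adjusted p = 0.0195, edgeR). Igkv1-117, Igkv6-32, and the near copy of Igkv1-135, Igkv1-133, with 20 to 84 counts a library in the OVA NP group, were also called higher. Iglv3 was at 14.1, 11.5, and 12.7 CPM with PBS and at 9.16, 9.45, and 9.62 CPM with OVA NPs (-0.42 ± 0.12, adjusted p = 0.0244, edgeR). None of the 6 calls survived the leaving out of every library in turn. The number of called members was 0 without PBS replicate 3 or OVA NP replicate 2, 2 and 3 without PBS replicates 2 and 1, and 11 without OVA NP replicate 3.

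Soluble OVA and PBS in the spleen differed in 3 of 86 members, all lower, beside 10.5% higher and 6.72% lower over all 14128 genes. As shares, 1 member was called higher and 3 lower. Iglv3 was at 7.64, 8.10, and 7.53 CPM with soluble OVA, below its 3 PBS values given above, and fell by 0.70 ± 0.12 on the log2 scale (adjusted p = 0.00139, edgeR). Its call held in every other setting and without any library. Igkv1-135 was at 53.2, 55.8, and 48.0 CPM with soluble OVA and fell by 0.40 ± 0.07 (adjusted p = 0.00112, edgeR). Igkv1-88 was at 11.9, 6.97, and 10.2 CPM with PBS and at 6.11, 6.13, and 4.23 CPM with soluble OVA, and fell by 0.79 ± 0.21 (adjusted p = 0.0165, edgeR). Without soluble OVA replicate 2, 6 members were called. The germinal center list summed to 325.0 to 442.8 CPM with PBS, 903.8 to 1026 CPM with soluble OVA, and 799.4 to 1029 CPM with OVA NPs. In the same order, the plasma cell list summed to 540.0 to 615.2 CPM, 754.8 to 884.3 CPM, and 867.8 to 895.9 CPM, and the monocyte and macrophage list to 96.5 to 239.7 CPM, 41.2 to 85.5 CPM, and 44.9 to 172.2 CPM. The part of these lists in the spleen differences was not tested.

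Between OVA NPs and soluble OVA in the spleen, 2 of 86 members were called, Igkv1-135 and Igkv1-88, both higher with OVA NPs. Over all 13840 genes tested, 0.137% were called higher and 0.101% lower. These 2 members were thus among the 19 genes of the whole table called higher. The Igkv1-135 libraries did not overlap, at 48.0 to 55.8 CPM with soluble OVA and 76.2 to 101.4 CPM with OVA NPs (log2 fold change 0.74 ± 0.10, adjusted p = 0.00956, edgeR). Igkv1-88 was at 15.5, 14.5, and 10.5 CPM with OVA NPs, above its soluble OVA values (1.28 ± 0.18, adjusted p = 0.00823, edgeR). As shares of the light-chain V counts, Igkv1-135 was called higher and Igkv6-25 lower. No member was called without soluble OVA replicate 1 or 3, without OVA NP replicate 2, or with all 18 libraries in 1 fit.

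The difference of treatment effects between tissues was tested as an interaction, called at an adjusted p below 0.05 with no fold cutoff. For OVA NPs against PBS, 2 of 91 members were called, both with a larger log2 fold change in PPs than in the spleen, beside 0.872% higher and 3.54% lower over all 16619 genes. Igkv2-137 had log2 fold changes of 0.88 in PPs and 0.04 in the spleen, and Igkv1-135 of 0.90 and 0.34. For soluble OVA against PBS, 3 of 90 members were called higher and 1 lower, beside 1.77% and 5.07% over all 16541 genes. Those called higher were Igkv3-5, Igkv6-15, and Igkv3-2, and Igkv4-61 was called lower. Igkv6-15 was at 17.0, 14.4, and 18.6 CPM in the spleen with PBS and at 17.96, 14.7, and 15.2 CPM with soluble OVA, so the rise given above for PPs had no counterpart in the spleen values (interaction 1.23 ± 0.25, adjusted p = 0.0104, edgeR). Igkv6-17 did not pass this test (1.00 ± 0.32, adjusted p = 0.0941, edgeR).

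The breadth of usage was summarized by the effective number of V genes, the exponential of the Shannon entropy of the shares, which is the number of equally used genes with the same entropy. It averaged 50.8 in the spleen libraries and 44.2 in the PP libraries, a difference of -6.58 (exact 2-sided permutation test within treatments, p = 0.00025, the smallest that 8000 arrangements can give). The 9 spleen libraries ran from 48.8 to 51.4 and the 9 PP libraries from 40.6 to 48.1, with no overlap. The difference was -4.41 in PBS, -7.33 in soluble OVA–treated, and -7.99 in OVA NP–treated mice. Within PPs, the effective number was 46.8 ± 1.4 with PBS, 42.9 ± 3.0 with soluble OVA, and 42.9 ± 1.1 with OVA NPs (mean ± SD, n = 3). The OVA NP libraries were all below the PBS libraries (exact permutation test, p = 0.1, the smallest possible), and the soluble OVA libraries overlapped them (exact permutation test, p = 0.2). Within the spleen the 3 treatments had means of 51.2, 50.2, and 50.9, and none of the 3 differences went below p = 0.2 (exact permutation tests).

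Replicates differed more from each other in PPs than in the spleen. The Bray-Curtis dissimilarity, the percentage of usage that would have to be moved to turn 1 library into another, averaged 7.10% for PBS, 9.89% for soluble OVA, and 9.46% for OVA NPs between spleen replicates. It averaged 18.5%, 23.4%, and 17.5% between PP replicates. The lowest PP pair, at 16.9%, was above the highest spleen pair, at 10.6%. The difference between the group means was 10.96 percentage points (exact permutation test over 3 groups against 3, p = 0.1, the smallest possible). In PPs, libraries of PBS and OVA NP–treated mice were 19.4% apart on average, close to the distance within those groups, and libraries of soluble OVA and OVA NP–treated mice were 28.2% apart. In the spleen the corresponding distances were 9.40% and 12.6%.

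The coefficient of variation (CV) of the CPM over 3 replicates was also higher in PPs than in the spleen at the median over members. Over members with a group mean of at least 50 counts, the median CV was 15.2%, 15.0%, and 16.4% in the spleen with PBS, soluble OVA, and OVA NPs, and 30.6%, 37.2%, and 33.8% in PPs. For all other genes at the same minimum the median CV was 5.47% to 7.51% in the spleen and 8.12% to 8.98% in PPs. A CV above 50% was found in 0 of 62, 0 of 60, and 2 of 63 members in the spleen groups. In PPs it was found in 6 of 52 with PBS, 18 of 56 with soluble OVA, and 8 of 62 with OVA NPs. Among other genes the share above 50% was at most 6.22% in any group.

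**Figure D5:**
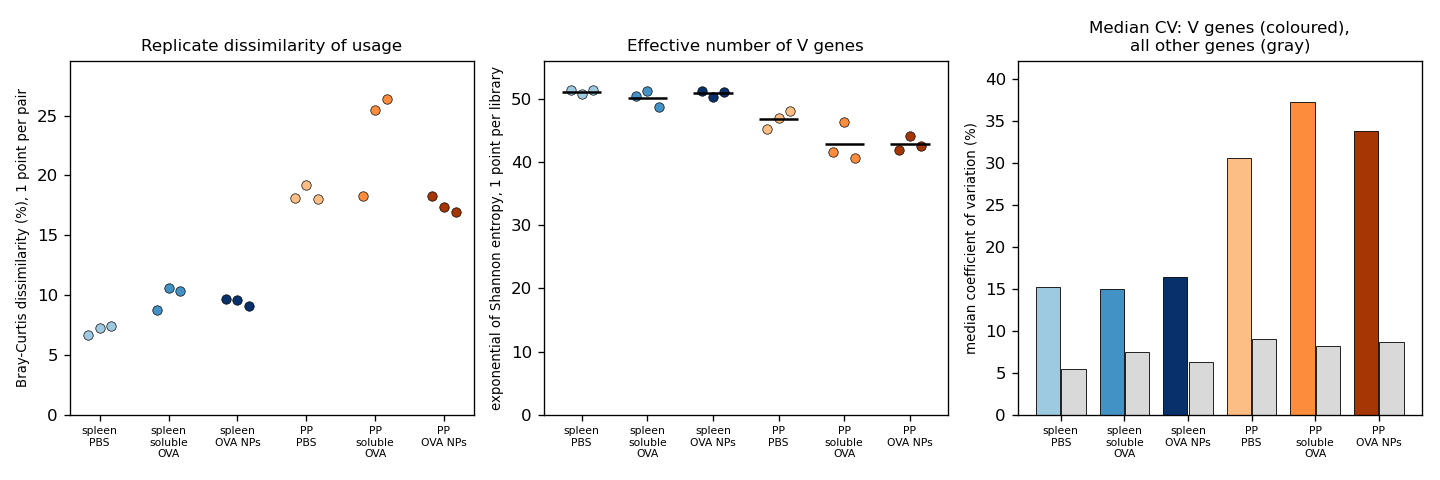
Bray-Curtis dissimilarity of usage between replicates (left, %, 1 point per pair), effective number of light-chain V genes (middle, 1 point per library, bar at the mean of 3), and median CV over replicates (right, %, colored bars for light-chain V genes and gray bars for all other genes with a mean of at least 50 counts). The 9 PP pairs lie between 16.9% and 26.4% and the 9 spleen pairs between 6.62% and 10.6%.

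In a single library each, 6 members stood out, with at least 100 counts and at least 3 times the CPM of the next replicate of the group. Igkv4-70 was at 17.6 CPM in PP OVA NP replicate 2 and at 3.53 CPM or less in the other replicates, a ratio of 4.99. Igkv14-111 was at 87.2 CPM, or 12.2% of the light-chain V counts, in PP soluble OVA replicate 3 and at 28.8 and 17.5 CPM in the others. Igkv6-13 was at 11.9 CPM in that same library and at most at 3.53 CPM in the others. Igkv4-57 (8.85 CPM in PP soluble OVA replicate 1), Igkv4-91 (5.37 CPM in PP PBS replicate 1), and Igkv12-98 (7.37 CPM in spleen OVA NP replicate 2) completed the list. Of the 6, 5 occurred in PP libraries and 1 in a spleen library. The rule was applied to the members only, so no share over all genes stands beside this count. Other genes also varied more in PPs, with a CV above 50% in 1.95% to 6.22% of them, against 0.341% to 0.546% in the spleen groups.

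Along the kappa locus, the 24 members within 500 kb of Igkj1 took 19.98% to 24.8% of the light-chain V counts in the spleen libraries and 20.2% to 28.7% in the PP libraries. Their share was 28.0% ± 0.7 with soluble OVA in PPs, 23.5% ± 0.7 with PBS, and 20.9% ± 0.7 with OVA NPs (mean ± SD, n = 3) and the 24 members include Igkv6-17, Igkv6-15, Igkv3-5, and Igkv3-2. At the other end, more than 3000 kb away, the 5 members, of which Igkv1-135 and Igkv2-137 were the 2 detected, took 14.4% ± 1.6 with OVA NPs in PPs, 9.57% ± 0.65 with PBS, and 7.72% ± 2.05 with soluble OVA.

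The genes that make or regulate light chains were taken from fixed lists. Rag1 and Rag2 encode the recombinase, and Dntt encodes an enzyme that adds bases at the joints. All 3 of these recombination genes were called lower in PPs than in the spleen. Rag2 had at most 16 counts and Dntt at most 28 counts in a library, and the Dntt values of the 2 tissues overlapped. Rag1 was at 2.79 to 6.86 CPM in the spleen and 0.141 to 2.69 CPM in PPs (log2 fold change -1.47 ± 0.25, adjusted p = 3.55e-05, edgeR). The surrogate light chain pairs with the heavy chain before a light chain is made. Of the 3 genes tested from the list of its genes and their relatives, Vpreb1 and Igll1 were called lower in PPs. They had at most 11 and 21 counts in a library. Vpreb3, a relative of Vpreb1, was called higher. Vpreb3 was at 29.5 to 35.6 CPM in the spleen and 40.8 to 64.3 CPM in PPs (0.79 ± 0.06, adjusted p = 9.14e-10, edgeR). Of the 3 factors that act on the octamer motif of V promoters, Pou2af1, a coactivator needed for germinal centers, was called higher in PPs than in the spleen (0.33 ± 0.04, adjusted p = 1.71e-06, edgeR) and Pou2f1 lower. Pou2af1 was at 903.9, 836.7, and 826.6 CPM with PBS and at 1269, 1261, and 1246 CPM with soluble OVA in PPs (0.58 ± 0.07, adjusted p = 0.000495, edgeR). Of the 9 enhancer factors, 1 was called higher and 2 lower in PPs than in the spleen. For soluble OVA against PBS in PPs, the 4 lambda and kappa C genes tested included 1 call, Iglc2, which fell by 0.68 ± 0.07 on the log2 scale (adjusted p = 0.00023, edgeR). Against soluble OVA, OVA NPs in PPs had a higher Iglc2 (0.77 ± 0.11, adjusted p = 0.00143, edgeR) and Iglc3 (0.45 ± 0.15, adjusted p = 0.0463, edgeR), and Igkc was not called in either.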

How the data were processed

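RNA was measured by paired-end RNA-Seq in 18 B cell libraries, 3 per tissue and treatment. Per the labels and the study's methods, the authors trimmed reads with Cutadapt 2.3, aligned them to GRCm38 with STAR 2.7.8a, and estimated counts with RSEM 1.3.3. The authors deposited these expected counts for each gene without normalization, and every value was a whole number. The reference genome comes from a strain other than BALB/cJ, so reads of strain-specific or mutated V exons may be missed or assigned to a near copy. Reads across V-J joints have no reference transcript.

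Groups were read from the labels. Counts were tested with edgeR 4.0.16 (R 4.3.3; TMM scaling, filterByExpr with a minimum of 10 counts, quasi-likelihood test) over all genes, after tests on simulated data. Fits used the 2 groups compared, the 12 libraries of 2 treatments for interactions, or all 18 for tissue, and the shared spread was estimated within each fit. Alternatives were DESeq2 1.42.0, its size factors in edgeR, no filter on low counts, scaling of members to their summed counts, all 18 libraries in 1 fit, a replicate block, and leaving out each library. Single values were tested by exact permutation (SciPy 1.17.1). The labels do not say which libraries come from the same mouse, so p-values measure the spread between these samples. The detection floors cover counting error only. The members and lists were chosen with earlier results of these data known. Named genes were the 10 most used, all Iglv genes, up to 5 called members per direction and comparison with the largest fold, non-overlapping libraries, and at least 1 CPM, members high in 1 library, and listed genes. Other members named were chosen after their values were seen. Promoter sequences of members were not used here. In 2 of the marker lists, 1 gene each is not reported here and was left out of the sums.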

Additional observations from a re-analysis of the deposited data

Results flagged for a closer look

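The effect of a treatment differed between tissues for 6 light-chain V genes by the interaction test (edgeR, adjusted p below 0.05), given as the log2 fold change in PPs minus that in the spleen. For OVA NPs against PBS, the difference was 0.85 ± 0.17 for Igkv2-137 (adjusted p = 0.0149) and 0.57 ± 0.14 for Igkv1-135 (adjusted p = 0.0357). Igkv2-137 lost its call when members were scaled to the summed light-chain V counts, and Igkv1-135 lost it with the replicate block and after leaving out any of 9 libraries. For soluble OVA against PBS, the difference was 1.29 ± 0.25 for Igkv3-5 (adjusted p = 0.00729), 1.23 ± 0.25 for Igkv6-15 (adjusted p = 0.0104), 0.79 ± 0.22 for Igkv3-2 (adjusted p = 0.0457), and -1.70 ± 0.37 for Igkv4-61 (adjusted p = 0.0117). Igkv3-5, Igkv6-15, and Igkv4-61 kept their calls in every other setting and without any single library, whereas Igkv3-2 lost its call after leaving out any of 10 libraries. In PPs, Igkv3-5, Igkv6-15, and Igkv3-2 rose and Igkv4-61 fell with soluble OVA, and none of the 4 was called in the spleen.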

How the results depend on the processing

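The number of called members depended on the setting more than the tissue difference did. Calls over the whole table changed with the setting too. For OVA NPs against PBS in the spleen, the main fit called 1221 genes higher and 902 lower of 14200, with 89 members tested. Without the filter on low counts the fit called 1450 and 1168 of 26928, with 124 members tested. With all 18 libraries the fit called 929 and 509 of 17170, with 92 members tested. Shares over all genes are not given for the counts below. Without the filter on low counts, the number called was 16 (main 6), 7 (3), and 14 (2) in the spleen for OVA NPs against PBS, soluble OVA against PBS, and OVA NPs against soluble OVA, and 4 (0) and 28 (10) in PPs for OVA NPs and soluble OVA against PBS. With all 18 libraries in 1 fit the numbers were 0, 1, and 0 in the spleen and 1, 19, and 25 (main 12) in PPs. With DESeq2 they were 4 for OVA NPs against soluble OVA in the spleen, 3 and 20 for OVA NPs and soluble OVA against PBS in PPs, and 9 (4) for the soluble OVA interaction. Scaling members to the summed light-chain V counts left 1 (2) in the OVA NP interaction. Leaving out 1 library at a time gave 0 to 11, 2 to 6, and 0 to 3 calls in the 3 spleen comparisons, 0 to 1, 6 to 12, and 6 to 11 in the 3 PP comparisons, 23 to 34 between tissues (29), 1 to 3 in the OVA NP interaction, and 3 to 8 in the soluble OVA interaction. The OVA NP interaction had 1 call without any PBS spleen library, OVA NP spleen replicate 1, PBS PP replicate 1, or OVA NP PP replicates 1 or 2, and the soluble OVA interaction had 8 and 7 without soluble OVA PP replicates 2 and 3. In the other settings, 96 of 136 counts of calls stayed within 1.5 times their main value, and the cause of the rest was not tested. Over all refits there were 1165 log2 fold changes of called members, of which none changed direction and 247 lost the call. These members were picked by their main call and most refits used nearly the same libraries, so a kept direction was likely in advance.

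The labels do not say whether replicate numbers pair the libraries, and correlations among 3 replicates cannot decide it. Same-numbered libraries had correlations of their deviations between -0.31 and 0.30, and at most 3 of the 6 libraries of a comparison correlated best with their own number. With a replicate block, the calls numbered 9 (main 6), 4 (3), and 2 (2) in the spleen, 0 (0), 9 (10), and 10 (12) in PPs, and 28 (29) between tissues. With the replicate block within treatment, the interactions had 1 (main 2) and 8 (4) calls.

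The effective number of V genes was lower in PPs in every setting, with a difference of -7.15 to -6.21 when 1 library was left out. The difference in lambda share ran from -1.89 to -1.35 percentage points, and that in replicate dissimilarity from 9.26 to 11.98. The difference in summed level had no stable sign, from -0.0506 to 0.013 when 1 library was left out. Some differences between treatments with p from 0.2 to 1 also changed sign. With the inverse Simpson index, the difference in effective number became 0.53 for soluble OVA against PBS and -1.68 for OVA NPs against soluble OVA in the spleen, and -1.78 for the latter in PPs. Leaving out 1 library gave ranges of -0.488 to 0.0287 for OVA NPs against PBS in the spleen and -1.05 to 1.79 for OVA NPs against soluble OVA in PPs, and for the summed level -0.124 to 0.0118 for soluble OVA against PBS in the spleen. Members under about 50 counts a library are limited by depth, and members with near copies by read assignment.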

Other observations

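Heavy-chain V genes gave 147.6 to 279.9 CPM in the same libraries, below the light-chain V genes in each. The Igkv6 family took 20.7% ± 3.5 of the light-chain V counts in PPs with soluble OVA, 14.4% ± 2.2 with PBS, and 10.1% ± 0.9 with OVA NPs (mean ± SD, n = 3). The Igkv1 family took 12.4% ± 1.0, 14.8% ± 0.7, and 19.7% ± 1.0 in the same groups, and in the spleen 14.8% ± 0.3, 17.0% ± 0.7, and 19.8% ± 0.3.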
